A study of Mus musculus with 50 samples.

Results

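The genes of oxidative phosphorylation were followed across RNA sequencing libraries from the whole brain of E13.5 mouse embryos carrying mutations of Gtf2i or Gtf2ird1. They were chosen by gene symbol alone: symbols beginning mt-, the Nduf, Sdh, Uqcr, Cox and Atp5 subunit symbols, with pseudogene symbols ending in -ps left out. This rule found 86 of the 11708 genes in the deposited count table. Of these, 75 are encoded in the nucleus and 11 in mitochondrial DNA, and the latter are 7 protein-coding genes and 4 transfer RNA genes. The nuclear genes comprise 7 core and 27 accessory subunits of complex I, 4 subunits of complex II, 8 of complex III, 13 of complex IV and 16 of complex V. Genes of these complexes that the table does not list, among them mt-Co2, mt-Co3, mt-Atp6 and the mitochondrial ribosomal RNAs, are not analysed here.

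The 18 RNA libraries fall into 6 groups of 3, all labelled strain FVB/ANTJ. The gtf2i cross holds wild-type embryos (wt_gtf2i), embryos whose genotype names the mutant allele once (gtf2i, read here as 1 mutant allele) and embryos with it on both sides (gtf2i/gtf2i). The ird1 cross, for Gtf2ird1, holds wt_ird1, ird1 and ird1/ird1 in the same way. The labels describe neither allele further, nor do they give sex, and they do not say whether each library is a separate embryo, so p-values measure the spread between these libraries. The brains were homogenised whole, and in such tissue fewer cells of a type and less RNA per cell cannot be told apart.

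Oxidative phosphorylation passes electrons from NADH and succinate along complexes I to IV of the inner mitochondrial membrane to oxygen, and complex V uses the resulting proton gradient to make ATP. Complexes I, III, IV and V mix subunits from both genomes, whereas complex II is wholly nuclear. The mitochondrial genes are transcribed from both strands of a small circular genome as long precursors, which are cut apart largely at the transfer RNAs. The nuclear subunit genes sit on many chromosomes and are known targets of nuclear respiratory factors such as NRF1, of ETS family factors including GABPA, and of YY1.

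To show what the start regions of the nuclear genes look like, the RefSeq promoter table (assembly GRCm38.p6, 250 bases before to 50 after the start) was searched on both strands for 3 short words that stand for these factors. A promoter was found for 62 of the 75 nuclear genes and for 17491 protein-coding genes in all. The NRF1 word, the 10-base palindrome set in capitals in the Uqcrc1 promoter, was present in 4 of the 62 (6.45%, against 1.47% of all promoters), namely Atp5k, Cox6a1, Ndufa11 and Uqcrc1. The ETS word CCGGAAG was present in 17 of 62 (27.4%, against 12.9%), and the YY1 word AAGATGGC in 9 of 62 (14.5%, against 3.57%). At least 1 of the 3 words was in 27 of 62 promoters (43.5%, against 16.9%). All promoters include those of genes that are not in the count table, so these shares were not set against expressed genes alone. A match is a run of letters and not a measured binding site. The last 3 letters of the ETS word are the first 3 of the YY1 word, so a run can hold both.

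The promoters below hold each of the 3 words and were chosen after the values were seen, as the genes with each word that had the lowest p in the ird1/ird1 comparison described later, plus Cox6a1, which holds both the NRF1 and the ETS word. They are printed 5′ to 3′ on the gene's own strand, with the words in capitals. Ndufb7, a complex I accessory subunit, has the ETS word 20 bases before the start (chr8:83566508-83566807, plus strand). Uqcrc1, a core protein of complex III, has the NRF1 word 30 bases after it (chr9:108936398-108936697, plus strand). Cox6a1, a nuclear subunit of complex IV, has the NRF1 word 162 bases before the start and the reverse complement of the ETS word 16 bases before it (chr5:115348909-115349208, minus strand). Atp5j2, a membrane subunit of complex V, has the YY1 word 23 bases after the start (chr5:145191492-145191791, minus strand).
Ndufb7: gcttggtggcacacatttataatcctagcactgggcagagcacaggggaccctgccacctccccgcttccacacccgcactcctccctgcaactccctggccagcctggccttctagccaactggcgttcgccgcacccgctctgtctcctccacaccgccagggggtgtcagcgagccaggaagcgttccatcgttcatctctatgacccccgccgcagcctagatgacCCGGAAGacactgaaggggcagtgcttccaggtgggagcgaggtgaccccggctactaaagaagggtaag
Uqcrc1: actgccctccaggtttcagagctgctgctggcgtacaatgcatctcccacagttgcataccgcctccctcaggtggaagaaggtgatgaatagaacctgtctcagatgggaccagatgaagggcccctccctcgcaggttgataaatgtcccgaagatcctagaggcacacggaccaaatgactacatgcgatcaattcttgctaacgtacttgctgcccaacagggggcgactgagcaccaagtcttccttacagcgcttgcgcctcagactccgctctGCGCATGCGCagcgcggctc
Cox6a1: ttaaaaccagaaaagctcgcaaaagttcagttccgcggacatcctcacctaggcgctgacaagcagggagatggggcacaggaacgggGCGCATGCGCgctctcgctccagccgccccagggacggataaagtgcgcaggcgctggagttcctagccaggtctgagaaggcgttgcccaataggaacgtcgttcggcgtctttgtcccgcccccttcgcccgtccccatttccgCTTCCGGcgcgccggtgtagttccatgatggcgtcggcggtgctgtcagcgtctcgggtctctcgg
Atp5j2: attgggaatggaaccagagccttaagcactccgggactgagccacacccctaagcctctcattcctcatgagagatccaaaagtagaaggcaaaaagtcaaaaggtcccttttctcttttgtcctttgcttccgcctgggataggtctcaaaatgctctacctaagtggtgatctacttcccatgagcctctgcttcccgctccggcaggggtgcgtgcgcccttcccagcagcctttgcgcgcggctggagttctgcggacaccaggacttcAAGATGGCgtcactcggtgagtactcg

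Total counts ranged from 3239117 in wt_ird1 replicate 2 to 7371483 in ird1/ird1 replicate 2. The biological coefficient of variation estimated by edgeR was 10.4% (gtf2i cross) and 10% (ird1 cross). Levels are in CPM, the usual count per scaled library size, with library sizes scaled by TMM. Gtf2i was at 624 ± 30.7 CPM in wt_gtf2i, 368 ± 6.23 in gtf2i and 82.5 ± 0.797 in gtf2i/gtf2i (SD, n = 3 each). Gtf2ird1 was higher, not lower, with its own mutant allele, at 98.2 ± 13.52 CPM in wt_ird1, 149 ± 1.93 in ird1 and 223 ± 4.21 in ird1/ird1 (SD, n = 3 each), so its count orders the labelled genotypes without showing a loss. It was higher with the other cross's allele too, at 92.4 ± 7.32 CPM in wt_gtf2i, 136 ± 8.92 in gtf2i and 267 ± 21 in gtf2i/gtf2i (SD, n = 3 each). In gtf2i/gtf2i against wt_gtf2i its difference was 1.52 on the log2 scale (SE 0.09, adjusted p = 5.61e-07 by edgeR). Of the listed markers, 20 of 20 for neurons and 15 of 16 for radial glia were in the table. So were 14 of 14 for mesenchyme, 13 of 14 for endothelium, 11 of 17 for red blood cells and 6 of 9 for the choroid plexus. Of the markers for skeletal muscle 0 of 8 were. A gene under the table's minimum in any library is not listed, so a missing marker may still be expressed. Library wt_ird1 replicate 2 stood apart in the genes described here, and the main values that rest on it are given with and without it.

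The 11 mitochondrially encoded genes together took between 0.562% and 1.00% of the counts in 17 libraries, and 0.218% (95% Wilson interval 0.213% to 0.224%) in wt_ird1 replicate 2. Such intervals cover the counting error of 1 library only. PCR copies were not told apart by molecular identifiers, so the intervals may be too narrow even for that. The share was 0.787% ± 0.157 in wt_gtf2i, 0.706% ± 0.112 in gtf2i and 0.809% ± 0.169 in gtf2i/gtf2i, and 0.504% ± 0.25 in wt_ird1, 0.596% ± 0.0295 in ird1 and 0.658% ± 0.0546 in ird1/ird1 (SD, n = 3 each). Without wt_ird1 replicate 2 the wt_ird1 mean was 0.647%, between those of ird1 and ird1/ird1. The libraries of the groups of each cross overlapped in this share. The 75 nuclear genes summed to a similar amount, from 0.678% in gtf2i/gtf2i replicate 3 to 0.897% in wt_ird1 replicate 2.

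Compared per kilobase of the transcript length given in the table, mt-Nd1, a core subunit of complex I, was highest at 1354 ± 324 CPM per kilobase (SD over 18 libraries). It was followed by mt-Co1, the catalytic subunit of complex IV, at 1198 ± 265 and by mt-Cytb, the cytochrome b of complex III, at 1152 ± 299, and these 3 levels lay within their SDs of each other. The complex I subunits mt-Nd6 at 682 ± 141, mt-Nd5 at 533 ± 119 and mt-Nd2 at 533 ± 164 CPM per kilobase came next. The lowest of the protein-coding genes was mt-Nd4, also of complex I, at 259 ± 105. Of the transfer RNAs, mt-Tc (cysteine) was at 313 ± 62.5, mt-Ta (alanine) at 182 ± 53.7, mt-Tl1 (leucine) at 145 ± 38.8 and mt-Tp (proline) at 125 ± 41 CPM per kilobase. They rest on 10 to 162 counts per gene and library. The kit named in the labels does not mark strand, so reads of mt-Nd6, mt-Ta, mt-Tc and mt-Tp, whose genes lie on the strand opposite to most, cannot be separated from reads of the opposite strand's precursor.

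Each of the 7 protein-coding mitochondrial genes was lowest in wt_ird1 replicate 2. For mt-Co1 the levels were 1788, 2120 and 2466 CPM in wt_gtf2i, 2159, 1777 and 1716 in gtf2i, and 1754, 2073 and 2641 in gtf2i/gtf2i. In the ird1 cross mt-Co1 was at 1712, 640 and 1817 CPM in wt_ird1, 1738, 1586 and 1799 in ird1, and 1892, 1758 and 1878 in ird1/ird1. Apart from the library at 640 CPM, the 17 values spanned 1.67-fold, and the genotype groups overlapped. For mt-Nd4 the levels were 287, 514 and 624 CPM in wt_gtf2i, 529, 380 and 375 in gtf2i, and 376, 341 and 663 in gtf2i/gtf2i. In the ird1 cross mt-Nd4 was at 271, 84.2 and 315 CPM in wt_ird1, 272, 213 and 273 in ird1, and 319, 260 and 329 in ird1/ird1. It varied most of the 7, by 3.12-fold over the 17 libraries and 7.87-fold over all 18.

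**Figure D1:**
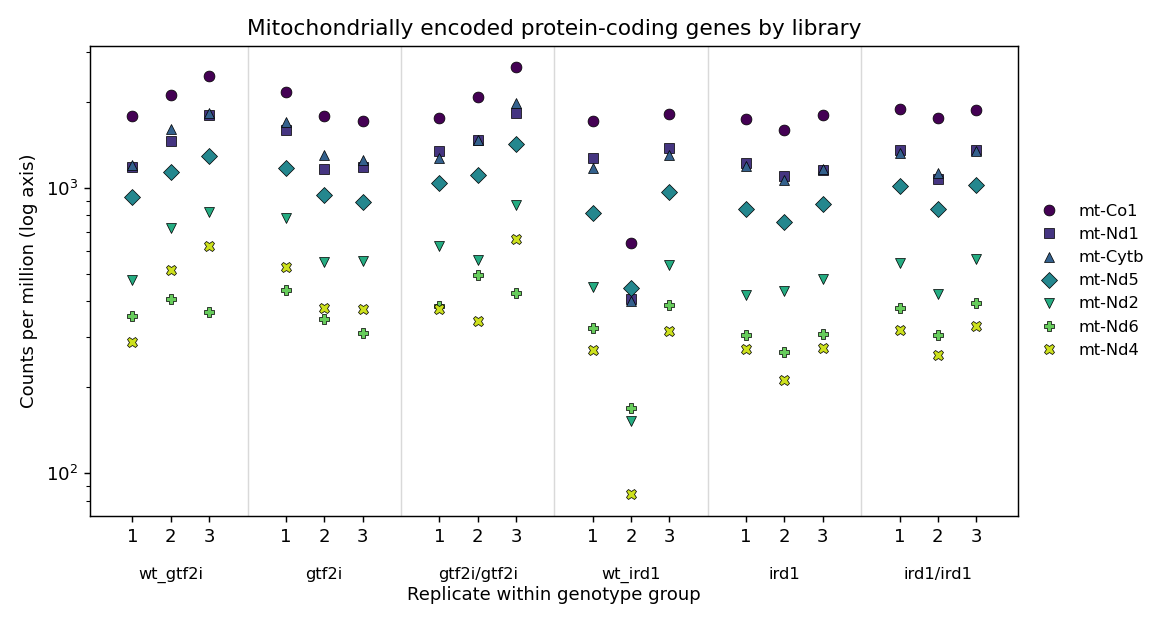
Levels in CPM (log axis) of the 7 mitochondrially encoded protein-coding genes in each of 18 libraries, grouped by genotype; each symbol is 1 gene in 1 library. Replicate 2 of wt_ird1 is lowest for each gene (mt-Co1 at 640 CPM against 1586 to 2641 elsewhere), and the other libraries of the genotype groups overlap.

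Transcripts of mitochondrial DNA did not move in strict proportion. In wt_ird1 replicate 2, mt-Nd6 took 7.35% (Wilson interval 6.76% to 7.99%) of the protein-coding mitochondrial counts, against 3.99% to 6.58% in the other 17 libraries, and mt-Nd4 took 3.66% (Wilson interval 3.25% to 4.13%, which covers the lowest of the others), against 3.92% to 6.78%. In the gtf2i cross, wt_gtf2i replicate 3 and gtf2i/gtf2i replicate 3 had the lowest mt-Nd6 shares (3.99% and 4.35%) and the highest mt-Nd4 shares (6.78% and 6.75%). These libraries also had the highest total mitochondrial share of their groups. They carry the same number in their sample titles as gtf2i replicate 2. That library had the highest mt-Nd6 share (5.36%) and the lowest mt-Nd4 share (5.89%) of its group. The slope over transcript length, described below, was -0.17 in wt_ird1 replicate 2 and 0.10 in wt_gtf2i replicate 3. It was 0.12 in gtf2i/gtf2i replicate 3 and 0.07 in gtf2i replicate 2. The part of this slope and of the title number in the shares was not tested.

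Within groups, the mitochondrially encoded genes varied more than the nuclear ones. The median within-group SD on the log2 scale was 0.45 for the 11 mitochondrial genes, 0.15 for the 75 nuclear genes and 0.17 for all 11708 genes. Without wt_ird1 replicate 2 these medians were 0.23, 0.14 and 0.15. The median half-width of the 95% interval of a log2 fold change in ird1/ird1 against wt_ird1 was 0.58 for mitochondrial and 0.25 for nuclear genes. None of the 11 mitochondrial intervals lay within a 1.5-fold change in either direction in that comparison, against 62 of 75 nuclear intervals. This rested on wt_ird1 replicate 2: without it the half-widths were 0.23 and 0.22, and 8 of 11 mitochondrial and 70 of 75 nuclear intervals lay within that range.

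Among nuclear genes, Atp5b, the catalytic beta subunit of ATP synthase (complex V), was highest at 616 ± 49.5 CPM per kilobase (SD over 18 libraries). Cox4i1, the ubiquitous isoform of a regulatory complex IV subunit, followed at 370 ± 54.7 and Atp5a1, the alpha subunit of ATP synthase, at 343 ± 23, and these last levels overlapped. The highest levels were 127 ± 18.3 in complex III, for the hinge protein Uqcrh, 117 ± 13.4 in complex II, for the iron-sulfur subunit Sdhb, and 114 ± 13.9 among the accessory subunits of complex I, for Ndufa7. The lowest of each complex, with core and accessory subunits of complex I apart, were Atp5l at 0.731 ± 0.138, Ndufb2 at 3.60 ± 0.329, Cox6b2 at 8.64 ± 1.93, Uqcrb at 21.6 ± 3.78, Ndufs1 at 27.2 ± 2.91 and Sdhc at 39.1 ± 4.12 CPM per kilobase. Medians by complex were close: 55.2 for core and 46.2 for accessory complex I, 57.9 for complex II, 69.6 for III, 59.5 for IV and 76.3 for V. The table's lengths of 6310 bases for Atp5l, 4715 for Atp5g1, 4435 for Ndufb7 and 4371 for Ndufb2 are long for such small subunits and lower their values per kilobase. How reads shared with processed pseudogenes or nuclear copies of mitochondrial DNA were counted is not given in the sources used here, so all levels carry that uncertainty.

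**Figure D2:**
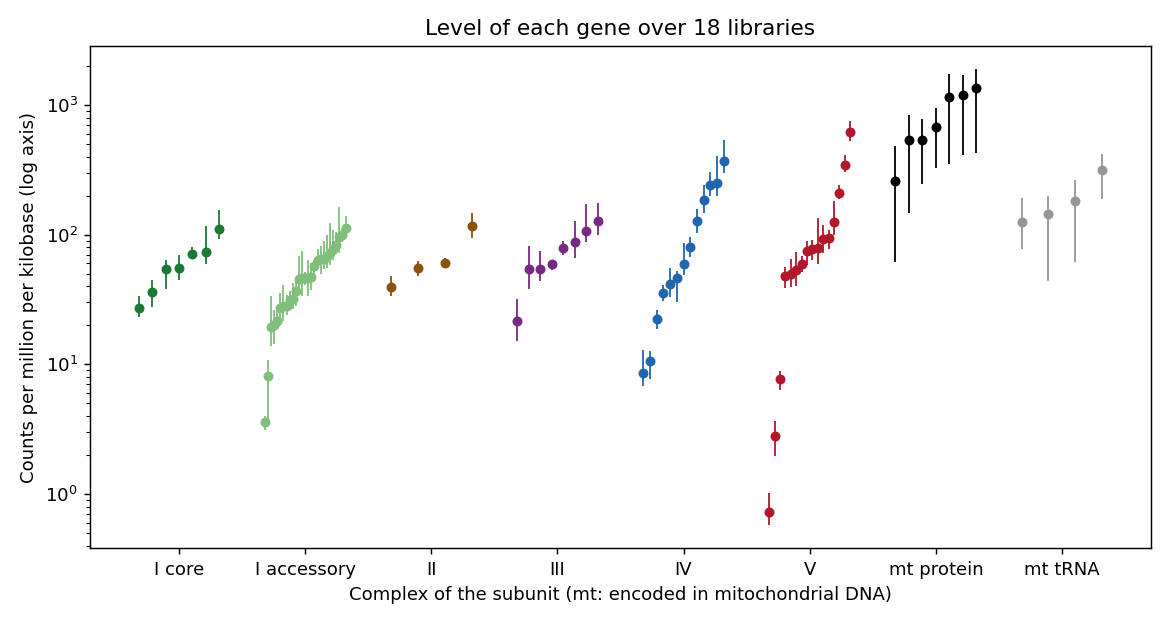
Levels in CPM per kilobase (log axis) of the 86 genes, arranged by complex; points are means over 18 libraries and bars run from the lowest to the highest library. Medians of the nuclear complexes lie between 46.2 and 76.3, and the mitochondrially encoded protein-coding genes between 259 and 1354.

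Several subunits have paralogues, and their levels differed. Cox6b1 was at 243 ± 30.2 and Cox6b2, known from testis, at 8.64 ± 1.93 CPM per kilobase (SD over 18 libraries). Cox7a2 was at 127 ± 15 and Cox7a2l, a factor of supercomplex assembly, at 59.5 ± 9.42. Of the genes for the membrane ring subunit of ATP synthase, Atp5g3 was at 211 ± 17.2 and Atp5g1, whose listed length of 4715 bases lowers its value, at 2.78 ± 0.44. Cox6a1 at 252 ± 48.5, Cox8a at 184 ± 25.8, Cox4i1 at 370 ± 54.7 and Ndufa4, now counted with complex IV, at 79.9 ± 9.2 had no paralogue in the table, and Atp5g2, Cox6a2, Cox8b, Cox4i2 and Cox7a1 are not analysed here. Reads of such near-identical copies may be split by the counting, so ratios between paralogues are uncertain.

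Sdha, the flavoprotein of complex II, was the steadiest of the 75 nuclear genes. Its levels were 176, 176 and 169 CPM in wt_gtf2i, 181, 174 and 180 in gtf2i, 190, 176 and 177 in gtf2i/gtf2i, 174, 183 and 173 in wt_ird1, 173, 165 and 165 in ird1, and 171, 178 and 174 in ird1/ird1. The highest library was 1.16-fold above the lowest. Atp5b ranged from 1005 CPM in gtf2i/gtf2i replicate 3 to 1433 in wt_ird1 replicate 2, with a median of 1178. The accessory subunit Ndufb4 had the largest within-group SD of the nuclear genes, 0.38 on the log2 scale, at 3.62 to 10.4 CPM and 11 to 75 counts. This ranking rested on wt_ird1 replicate 2. Without it the largest nuclear SD was 0.29, in complex V, and the largest among complex I accessory subunits was 0.22.

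In gtf2i/gtf2i against wt_gtf2i, no oxidative phosphorylation gene passed the test. The number with an adjusted p under 0.05 (called, by edgeR's quasi-likelihood test over all genes) was 0 of 75 nuclear and 0 of 11 mitochondrial genes, where 0.94% of all 11708 genes were called. At an unadjusted p under 0.05 there was 1 nuclear and 1 mitochondrial gene (14.4% of all genes), and DESeq2 called 0. The median log2 fold change was -0.01 for nuclear and 0.06 for mitochondrial genes, against 0.00 for all genes, and 43 of 75 nuclear genes were below 0 (49.6% of all genes). Neither median kept its sign without gtf2i/gtf2i replicate 3, where they were 0.07 and -0.06, and leaving out each library in turn took the mitochondrial median from -0.09 (without wt_gtf2i replicate 1) to 0.20 (without wt_gtf2i replicate 3). With the number in the sample title as a block, which was taken to pair these groups, 5.33% of all genes and still 0 of the 86 were called.

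By role, the medians of this comparison were 0.05 for core and -0.02 for accessory subunits of complex I, 0.00 for complex II, 0.02 for complex III, -0.03 for complex IV and 0.01 for complex V. The largest nuclear values were 0.27 (SE 0.13, adjusted p = 0.378 by edgeR) for Cox7a2l and 0.26 (SE 0.18, adjusted p = 0.574) for Cox7c, a small complex IV subunit. The most positive in the other complexes were 0.17 (SE 0.10) for the core subunit Ndufs1, 0.06 (SE 0.07) for Sdha, 0.11 (SE 0.13) for Uqcrh and 0.13 (SE 0.25) for Atp5l. The most negative were -0.15 (SE 0.14) for the core subunit Ndufs3, -0.18 (SE 0.11) for the accessory subunit Ndufa9, -0.02 (SE 0.10) for Sdhc, -0.02 (SE 0.11) for Uqcrc1, -0.19 (SE 0.24) for Cox6b2 and -0.10 (SE 0.11) for Atp5o, a stalk subunit of complex V. Cox7a2l was at 64.9, 55.3 and 56.4 CPM in wt_gtf2i and at 72.5, 86.6 and 56.3 in gtf2i/gtf2i. Replicate 3 of gtf2i/gtf2i lay among the wild-type values and the groups overlapped. Without it, Cox7a2l was the 1 nuclear gene called, at 0.43 (SE 0.11, adjusted p = 0.0222), and 9.9% of all genes were called.

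The unadjusted p was under 0.05 for Ndufa6, a complex I accessory subunit, and for mt-Tc. Ndufa6 was at 52.2, 48.2 and 46.9 CPM in wt_gtf2i, 50.4, 49.0 and 48.0 in gtf2i, and 58.8, 58.4 and 53.7 in gtf2i/gtf2i, a log2 fold change of 0.21 (SE 0.09, adjusted p = 0.336 by edgeR) against wild type. mt-Tc was at 19.0, 23.0 and 20.3 CPM in wt_gtf2i, 19.2, 20.1 and 17.3 in gtf2i, and 27.8, 25.9 and 23.7 in gtf2i/gtf2i. In both genes the gtf2i/gtf2i libraries lay above each of the other 6. How many genes share that placing was not counted. Against wt_gtf2i alone and in either direction, the libraries did not overlap for 4 nuclear and 1 mitochondrial genes, where 16.8% of all genes did not. For mt-Tc the log2 fold change was 0.30 (SE 0.13, adjusted p = 0.292) against wt_gtf2i and 0.45 (SE 0.13, adjusted p = 0.0826) against gtf2i. With the length trend described below removed, the value against wt_gtf2i was 0.17 (SE 0.18, adjusted p = 0.705).

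The protein-coding mitochondrial genes had no common placing in this comparison. Between libraries that share a title number, the median log2 difference of gtf2i/gtf2i minus wt_gtf2i over these 7 genes was 0.25, -0.20 and 0.10, with 7, 0 and 7 genes above 0. For the 75 nuclear genes the same differences were -0.03, 0.08 and -0.03. In the same comparison, where 0.94% of all genes were called, Aldoc and Eno2 (2 of 20 genes of glycolysis) were called lower, while that list's median log2 fold change was 0.19 with 7 of 20 below 0. Rps4l (1 of 70 cytosolic ribosomal proteins) was called higher, and the median of its list was 0.11 with 13 of 70 below 0. Markers of other cells were called too: Slc4a1 and Hbb-y of red blood cells (2 of 11) and Ccnd1 of radial glia (1 of 15) were higher, and Ttr of the choroid plexus (1 of 6) lower. The medians of these lists were 0.38 (1 of 11 below 0), 0.32 (3 of 15) and 0.22 (2 of 6), so Ttr lay against the median of its list. Summed red blood cell markers ranged from 4252 to 5443 CPM in wt_gtf2i and from 5954 to 9343 in gtf2i/gtf2i, and their part in the members' values was not tested.

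In gtf2i against wt_gtf2i, 0 of 75 nuclear and 0 of 11 mitochondrial genes were called by edgeR (0.00854% of all genes). With p unadjusted and under 0.05 there was 1 nuclear gene, where 1.6% of all genes were, and DESeq2 called 0. That gene was Cox7a2, at 96.2, 78.8 and 78.4 CPM in wt_gtf2i and 78.2, 68.1 and 71.3 in gtf2i, without overlap (7.27% of all genes). Its log2 fold change was -0.22 (SE 0.10, adjusted p = 1.00 by edgeR). The medians were -0.05 for nuclear and -0.15 for mitochondrial genes. They varied with the libraries set side by side: between libraries of the same title number they were -0.18, -0.01 and 0.05 for nuclear and 0.00, 0.05 and -0.49 for mitochondrial genes, and without wt_gtf2i replicate 1 the nuclear median was 0.03.

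In gtf2i/gtf2i against gtf2i, 0 of 86 were called by edgeR, where 3.12% of all genes were. Under an unadjusted p of 0.05 there were Ndufa6 and mt-Tc (16.5% of all genes), and DESeq2 called 0. The medians were 0.03 for nuclear and 0.23 for mitochondrial genes, with 11 of 11 mitochondrial genes above 0 (51.5% of all genes). With the length trend described below removed they were -0.02 and 0.15. Without gtf2i/gtf2i replicate 3 they were 0.11 and 0.10, the nuclear median was 0.00 without gtf2i/gtf2i replicate 2, and the mitochondrial median was 0.38 without gtf2i replicate 1. Between libraries of the same title number, however, the mitochondrial medians were 0.31, -0.25 and 0.60. Markers of radial glia (5 of 15), red blood cells (5 of 11) and mesenchyme (1 of 14) were called higher, with list medians of 0.24, 0.52 and 0.17. Mapt of the neurons (1 of 20, list median -0.16) and Ttr of the choroid plexus (1 of 6, list median 0.06 with 3 of 6 below 0) were called lower. The part of these markers was not tested. Without gtf2i/gtf2i replicate 3, edgeR called mt-Tc (log2 fold change 0.52, SE 0.15, adjusted p = 0.0297) and Cox7a2l (0.37, SE 0.11, adjusted p = 0.0372), where 11.8% of all genes were called. With all libraries and the title number as a block, edgeR called mt-Tc (0.44, SE 0.12, adjusted p = 0.0413), where 7.62% of all genes were called.

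In ird1/ird1 against wt_ird1, most nuclear genes were slightly lower, and none of them passed the test. The median log2 fold change of the 75 nuclear genes was -0.16, against 0.00 for all genes, and 65 of 75 lay below 0 (50.5% of all genes). By complex the medians were -0.23 for core and -0.18 for accessory subunits of complex I, -0.10 for complex II, -0.23 for III, -0.11 for IV and -0.14 for V. With a trend over transcript length removed, as described later, the nuclear median was -0.01 and that of complex IV 0.07. By edgeR 0 nuclear and 0 mitochondrial genes were called (0.00854% of all genes), and DESeq2 called 0. Before adjustment, at p under 0.05, there were 21 nuclear genes, each of them lower, and 0 mitochondrial genes, where 16.1% of all genes were (8.4% lower). That count of 21 was 12 without wt_ird1 replicate 2 (877 of all genes, against 1886 with it), 10 when replicate 1 of ird1/ird1 was left out (983) and 7 when its replicate 2 was (1194). Over the 3 other scalings of the libraries the nuclear median ranged from -0.16 to -0.12.

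Ndufb7, the complex I accessory subunit whose promoter is printed above, had the lowest p. It was at 95.2, 149 and 98.9 CPM in wt_ird1, 83.4, 92.8 and 77.9 in ird1, and 79.4, 75.5 and 87.9 in ird1/ird1. Each ird1/ird1 library lay below each wild-type library, with a log2 fold change of -0.49 (SE 0.15, adjusted p = 0.296 by edgeR). Ndufs8, a core iron-sulfur subunit of complex I, was at 64.0, 66.1 and 70.3 CPM in wt_ird1 and at 57.5, 49.2 and 53.4 in ird1/ird1 (-0.34, SE 0.11, adjusted p = 0.296). Of the other complex I accessory subunits, Ndufb10 (-0.36, SE 0.11), Ndufb11 (-0.32, SE 0.11) and Ndufa13 (-0.41, SE 0.14) had groups that did not overlap and the same adjusted p.

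In complex II, Sdhb was at 157, 181 and 165 CPM in wt_ird1 and 138, 135 and 146 in ird1/ird1, without overlap (-0.28, SE 0.09, adjusted p = 0.296 by edgeR). Its partner Sdha was at -0.03 (SE 0.08). In complex III, Uqcrc1 was at 233, 313 and 232 CPM in wt_ird1 and 210, 215 and 199 in ird1/ird1 (-0.32, SE 0.11). The wild-type libraries of Sdhb and Uqcrc1 were all above the mutants, and replicate 2 of wt_ird1 was the highest in both. The most negative value of complex III was that of Uqcr10, a small subunit, at -0.39 (SE 0.16), and of complex IV that of Cox6a1, at -0.36 (SE 0.14). Also in complex IV, Cox4i1 was at 309, 413 and 315 CPM against 275, 263 and 283 (-0.34, SE 0.11). In complex V, Atp5e, the epsilon subunit of the central stalk of ATP synthase, was at 140, 229 and 149 CPM against 115, 124 and 141, with overlapping groups (-0.45, SE 0.15). Without wt_ird1 replicate 2 the values were -0.27 (SE 0.10) for Ndufb7, -0.19 (SE 0.07) for Cox4i1, -0.17 (SE 0.08) for Uqcrc1, -0.20 (SE 0.09) for Atp5e, -0.22 (SE 0.10) for Ndufa13, -0.21 (SE 0.09) for Ndufb11, -0.34 (SE 0.11) for Ndufs8 and -0.22 (SE 0.08) for Sdhb, with an adjusted p of 0.653 for each by edgeR. Cox6a1 was then at -0.14 (SE 0.09, adjusted p = 0.661) and Uqcr10 at -0.19 (SE 0.13, adjusted p = 0.678). The most positive values elsewhere were small beside their errors: 0.08 (SE 0.10) for Ndufs1, 0.03 (SE 0.26) for Ndufb4, 0.01 (SE 0.09) for Uqcrfs1, the Rieske protein of complex III, and 0.11 (SE 0.21) for Cox7c. Without wt_ird1 replicate 2 these were 0.06 (SE 0.09), -0.20 (SE 0.21), 0.07 (SE 0.08) and 0.23 (SE 0.22) in the same order. Atp5g1 had the largest positive value of the nuclear genes, 0.25 (SE 0.15, adjusted p = 0.366), at 15.1, 12.8 and 12.4 CPM in wt_ird1 and 15.5, 17.1 and 16.0 in ird1/ird1.

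The groups did not overlap for 19 of 75 nuclear genes, 18 of them lower in ird1/ird1, where 26.9% of all genes did not overlap (11.8% lower). The total without overlap was near its background share, and the count of lower genes was above its own. Under the title number with 2 libraries of each genotype the nuclear median was -0.17, with 68 of 75 genes below 0. Under the other number, with 1 library of each, it was -0.15, with 52 of 75 below 0. Without wt_ird1 replicate 2 the nuclear median was -0.12.

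**Figure D3:**
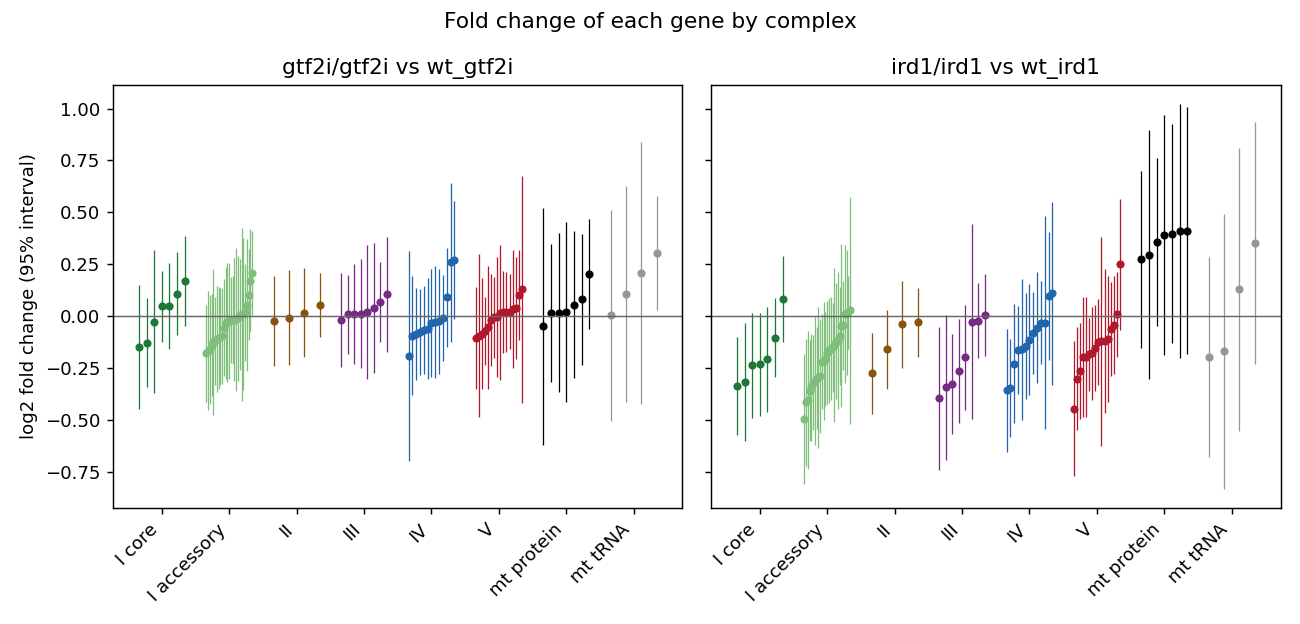
log2 fold change of each of the 86 genes with its 95% interval, for gtf2i/gtf2i against wt_gtf2i (left) and ird1/ird1 against wt_ird1 (right), arranged by complex. In the right panel 65 of 75 nuclear genes lie below 0 and the 7 mitochondrially encoded protein-coding genes above 0; none of the 86 was called in either comparison.

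The protein-coding mitochondrial genes had the opposite sign in ird1/ird1, and that placing rested on 1 library. Their log2 fold changes ran from 0.27 (SE 0.20) for mt-Nd6 to 0.41 (SE 0.28) for mt-Nd2, with adjusted p of 0.333 to 0.557 by edgeR. Without wt_ird1 replicate 2 the values were 0.06 (SE 0.07) for mt-Co1, 0.03 (SE 0.09) for mt-Cytb, -0.08 (SE 0.09) for mt-Nd1, 0.05 (SE 0.11) for mt-Nd2, 0.04 (SE 0.11) for mt-Nd4, 0.10 (SE 0.10) for mt-Nd5 and 0.01 (SE 0.11) for mt-Nd6. The median of the 11 mitochondrial genes was 0.35 with that library and 0.03 without it.

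The nuclear genes are short transcripts, and their placing moved with a trend over transcript length. In each library, the deviation of each gene's log2 CPM from its mean over the 18 libraries was set against its log2 transcript length. The 86 genes followed here and 8 genes without a length were left out of this fit. The slope ran from -0.17 per doubling of length in wt_ird1 replicate 2, where short transcripts were high, to 0.12 in gtf2i/gtf2i replicate 3, where they were low. Of the 75 nuclear genes, 71 were shorter than the median of all genes (median 1129 against 3634 bases). The median deviation of the 75 nuclear genes was highest, 0.26, in wt_ird1 replicate 2, and lowest, -0.22, in gtf2i/gtf2i replicate 3, the libraries at the ends of the slope. The slope was -0.03, -0.17 and -0.08 in wt_ird1 and 0.05, 0.03 and -0.02 in ird1/ird1.

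**Figure D4:**
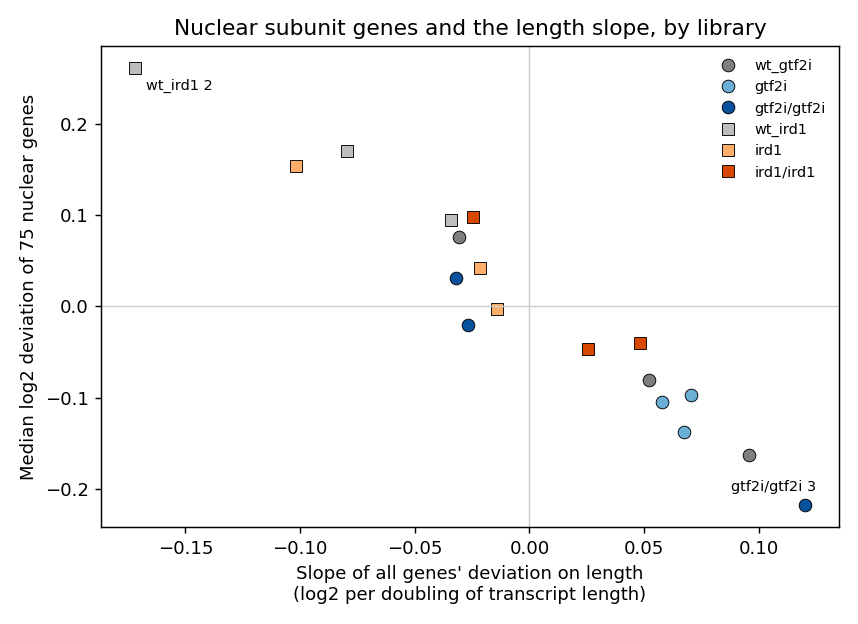
Median log2 deviation of the 75 nuclear genes from their means over 18 libraries, against the slope of the other genes' deviations on transcript length. The 86 genes followed here and 8 genes without a length were left out of the slope. Each point is 1 library, coloured by genotype. Libraries with a more negative slope have higher nuclear genes, from wt_ird1 replicate 2 (slope -0.17, deviation 0.26) to gtf2i/gtf2i replicate 3 (0.12 and -0.22).

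With the trend of each library on transcript length removed, the nuclear median of ird1/ird1 against wt_ird1 was -0.01, with 41 of 75 genes below 0 and 5 at an unadjusted p under 0.05, where 12.9% of all genes were. By complex the medians were then -0.07 for core and -0.02 for accessory complex I, -0.06 for II, -0.06 for III, 0.07 for IV and -0.01 for V. The median of the mitochondrial genes, which are short too, moved away from 0, from 0.35 to 0.51, with wt_ird1 replicate 2 included in both values. Among the genes named above, the values became -0.12 (SE 0.08) for Sdhb, -0.13 (SE 0.09) for Cox4i1, -0.11 (SE 0.11) for Cox6a1, -0.12 (SE 0.12) for Uqcr10, -0.17 (SE 0.10) for Ndufs8, -0.16 (SE 0.10) for Ndufb10, -0.13 (SE 0.09) for Ndufb11 and -0.26 (SE 0.12) for Ndufa13. Uqcrc1 at -0.26 (SE 0.10) and Atp5e at -0.32 (SE 0.13) moved less, and the positive value of Cox7c became 0.32 (SE 0.20). Ndufb7 was at -0.53 (SE 0.15), where its listed length of 4435 bases, long for a small subunit, limits the use of this setting.

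In ird1 against wt_ird1, edgeR called 0 of 86 genes and 0% of all genes, and DESeq2 called 0 of the 86. At an unadjusted p under 0.05 there were 3 nuclear genes and 1 mitochondrial gene (3.02% of all genes). The nuclear median was -0.09 and the mitochondrial 0.16, or -0.05 and -0.14 without wt_ird1 replicate 2. With the length trend removed they were -0.03 and 0.25. Without 1 library the 3 nuclear genes became between 0 (without ird1 replicate 3) and 12 (without wt_ird1 replicate 1). Over all genes the count was 353 with every library, and 269 and 694 without those libraries in turn. The mitochondrial gene was mt-Tl1, at 9.33, 3.29 and 9.66 CPM in wt_ird1 and 12.7, 12.9 and 10.4 in ird1, a log2 fold change of 0.59 (SE 0.27, adjusted p = 0.997). Its lowest wild-type library rests on 10 counts. Ndufb7 (-0.41, SE 0.15) and Uqcrh (-0.29, SE 0.12) had the lowest p of the nuclear genes, with adjusted p = 0.997 and groups that did not overlap (7.04% of all genes).

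In ird1/ird1 against ird1, edgeR called 0 of 86 genes and 0% of all genes, and DESeq2 called 0 of the 86. With p unadjusted and under 0.05 there was 1 nuclear gene (4.66% of all genes), Sdhc, a membrane anchor of complex II, at 129, 152 and 137 CPM in ird1 and 127, 120 and 120 in ird1/ird1 (-0.20, SE 0.09, adjusted p = 0.766). The nuclear median was -0.08, with 61 of 75 below 0 (50.9% of all genes), and -0.01 with the length trend removed. Under the title number with 2 libraries of each genotype it was -0.12, with 69 of 75 below 0, and under the number with 1 of each it was 0.06, with 28 of 75 below 0. Without ird1 replicate 2 it was -0.02. The mitochondrial median was 0.14, and 0.08 without replicate 3 and 0.29 without replicate 2 of ird1/ird1.

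**Figure D5:**
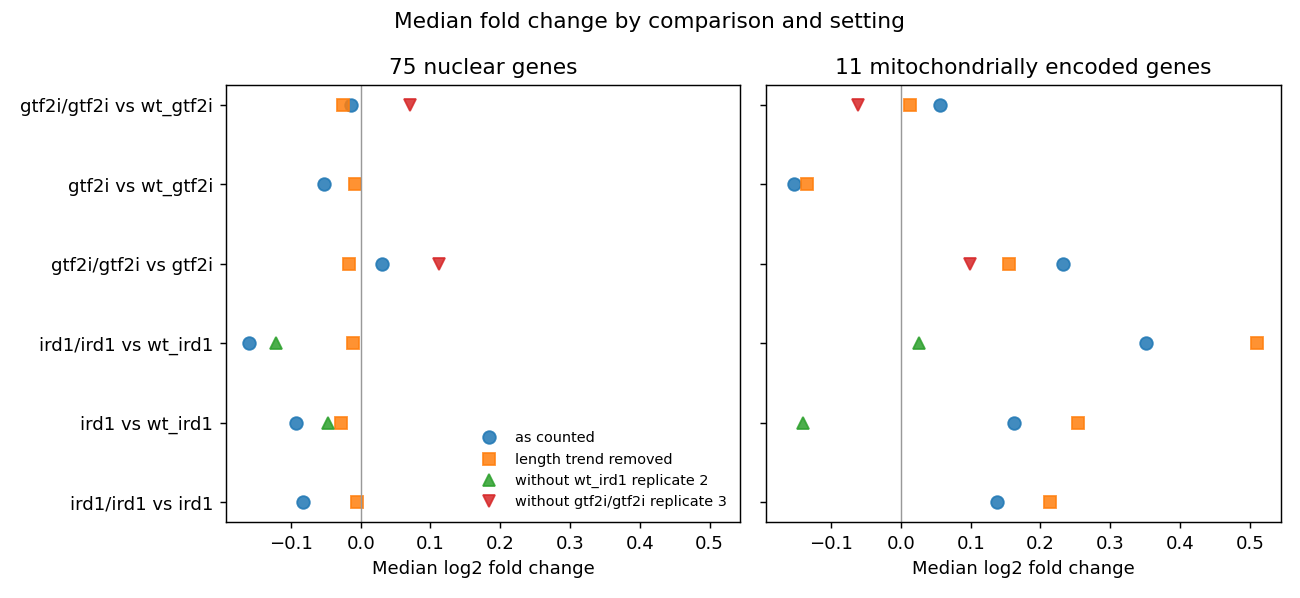
Median log2 fold change of the 75 nuclear (left) and 11 mitochondrially encoded genes (right) in the 6 comparisons within crosses, as counted, with the length trend removed, and without each of the libraries at the ends of the length slope. The nuclear median of ird1/ird1 against wt_ird1 goes from -0.16 to -0.01 with the trend removed, and the mitochondrial median from 0.35 to 0.03 without wt_ird1 replicate 2.

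The difference between the gtf2i/gtf2i effect and the ird1/ird1 effect, each against its own wild type, was tested over all 18 libraries. By edgeR 0 of 75 nuclear and 0 of 11 mitochondrial genes were called, where 0.171% of all genes were. Under an unadjusted p of 0.05 there were 8 nuclear genes, each with a higher value in gtf2i/gtf2i, and 0 mitochondrial genes (13% of all genes, 6.48% higher), and DESeq2 called 0. Leaving out 1 library moved those 8, and the 1517 of all genes moved too. The nuclear count was 2 without gtf2i/gtf2i replicate 2 (966 of all genes) or wt_ird1 replicate 2 (1163). It was 21 without wt_gtf2i replicate 1 (2081), 20 without gtf2i/gtf2i replicate 3 (2869) and 17 without wt_ird1 replicate 1 (1918). Of the ird1/ird1 libraries, leaving out replicate 3 gave 13 (1495), and leaving out replicate 1 (1009) or 2 (1365) gave 3. The count was 4 without gtf2i/gtf2i replicate 1 (937) or wt_gtf2i replicate 3 (918), and 5 without wt_gtf2i replicate 2 (1268). The lowest p was that of Ndufa6 (0.42, SE 0.13, adjusted p = 0.232), followed by the accessory subunit Ndufb11 (0.42, SE 0.14, adjusted p = 0.258). The nuclear median was 0.14 and went to -0.01 with the length trend removed. Without gtf2i/gtf2i replicate 3, edgeR called Cox7a2l (0.65, SE 0.18, adjusted p = 0.0409), Ndufb11 (0.50, SE 0.15, adjusted p = 0.0475) and Ndufa6 (0.47, SE 0.14, adjusted p = 0.05), where 6.18% of all genes were called. The median of the mitochondrial genes was -0.25, and 0.00 without wt_ird1 replicate 2.

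The wild types of the crosses gave the largest medians of the 8 comparisons. In wt_gtf2i against wt_ird1 the nuclear median was -0.21, with 69 of 75 below 0 (51.2% of all genes), and the mitochondrial median 0.53, with 10 of 11 above 0 (48.8%). By edgeR 0 of the 86 and 0% of all genes were called. Before adjustment, at p under 0.05, there were 37 nuclear and 5 mitochondrial genes (32.7% of all genes, or 3827). The nuclear count was 17 without wt_gtf2i replicate 3 (2287 of all genes) and 18 without wt_ird1 replicate 2 (1864 of all genes). DESeq2 called 17 nuclear genes and 1 mitochondrial gene, where it called 11.6% of all genes. Without wt_gtf2i replicate 1, edgeR called 31 nuclear and 4 mitochondrial genes (17.7% of all genes), and without wt_ird1 replicate 1 it called 16 nuclear genes (8.81% of all genes). Ndufv1, the NADH-binding core subunit of complex I, was at 111, 107 and 108 CPM in wt_gtf2i and 126, 193 and 135 in wt_ird1, without overlap (-0.47, SE 0.12, adjusted p = 0.0689). mt-Nd4 had the largest mitochondrial value, 1.07 (SE 0.33, adjusted p = 0.0689), with overlapping groups. With the length trend removed the medians were -0.06 and 0.77, and without wt_ird1 replicate 2 they were -0.19 and 0.27. No title number holds libraries of both crosses, so cross and title number cannot be told apart.

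Genes that serve the same pathway outside the complexes were described from lists. Of 48 assembly factors, 20 genes of mitochondrial DNA maintenance and transcription, 75 mitochondrial ribosomal proteins and 18 genes of the tricarboxylic acid cycle, 0 were called by edgeR in the 6 comparisons within crosses, beside the percentages given above. In ird1/ird1 against wt_ird1 the mitochondrial ribosomal proteins had a median log2 fold change of -0.14, with 60 of 75 below 0 and 16 at an unadjusted p under 0.05, 14 of them lower, where 16.1% of all genes were (8.4% lower). With the length trend removed it was -0.05. Cytosolic ribosomal proteins (median -0.18, 59 of 70 below 0) and genes of the glycolysis list (-0.19, 17 of 20) were placed alike, and at -0.04 and -0.11 with the trend removed. Assembly factors (-0.07) and tricarboxylic acid cycle genes (0.00) lay nearer to 0. Of 11 regulators of respiratory genes, Tfe3, a transcription factor of lysosomal and mitochondrial genes, was the 1 called in gtf2i/gtf2i against gtf2i, where 3.12% of all genes were, and was higher (0.55, SE 0.11, adjusted p = 0.0175), at 70.1 ± 8.06 against 47.6 ± 1.81 CPM (SD, n = 3 each).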

How the data were processed

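RNA libraries of E13.5 whole brain were compared. Per the labels' protocols, ribosomal RNA was depleted and libraries were made with a commercial kit; per the submitters' processing notes, Trimmomatic, STAR, HTSeq and mm10 were used, with versions and settings not given in the sources used here. The deposited table holds read counts for each gene as whole numbers, without normalization by the authors. The smallest count in each library was 2.9 to 3.09 CPM of its total, so the table holds only genes above a minimum in every library. The members, gene lists and tests were chosen with earlier results of these data known.

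Counts were scaled by TMM, filtered with filterByExpr (0 genes removed) and tested with edgeR 4.0.16 (limma 3.58.1, R 4.3.3) by the quasi-likelihood test, with Benjamini-Hochberg adjustment over 11708 genes; an adjusted p under 0.05 is called. Within a cross 9 libraries were fitted, and 18 libraries for comparisons between crosses. Scripts were tested on simulated data. Alternatives were DESeq2 1.42.0, other scalings and filters, the replicate block, the length trend (lowess, span 0.3) and leaving out each library. No library was a repeat of another in its group: over the 18 pairs within groups, chi-square divided by its degrees of freedom was 2.9 to 29.5.

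Sample titles begin with a shared number of unstated meaning. Deviations from group means correlated between same-numbered libraries of gtf2i/gtf2i and wt_gtf2i at 0.10, 0.37 and 0.51. Each was over 0.1, so the number was taken to pair these groups. The pairing was not clean: gtf2i/gtf2i replicate 1 correlated at 0.20 with the differently numbered wt_gtf2i replicate 1, above its same-numbered library (0.10). In the other comparisons at least 1 pair did not exceed 0.1.

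Genes named are every mitochondrial gene, the highest and lowest per kilobase in each complex, the largest value in each direction per complex in the homozygous comparisons, and paralogue sets; others named were chosen after their values were seen. A level that this rule would name is not reported here. All 86 members matched RefSeq coordinates (GRCm38.p6), and 85 identifiers carried the same symbol in the name table. The 32 chromatin immunoprecipitation and input samples were not used here.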

Additional observations from a re-analysis of the deposited data

How the results depend on the processing

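With the length trend removed, the nuclear median was -0.0103 in ird1/ird1 against wt_ird1, -0.00942 in the difference of effects and -0.0576 in wt_gtf2i against wt_ird1; with the replicate block as well, it was -0.0131 and -0.00786 in the first 2. The replicate block alone changed 1 member call: edgeR called 1 mitochondrial gene, mt-Tc, in gtf2i/gtf2i against gtf2i (adjusted p = 0.0413), where the title numbers were not taken to pair the libraries (correlations 0.0568 to 0.115). The wild types of the crosses share no number, so no block could be fitted there. DESeq2 called 17 nuclear genes and 1 mitochondrial gene in wt_gtf2i against wt_ird1, where it called 11.6% of all genes.

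Over all genes, the 110 called in gtf2i/gtf2i against wt_gtf2i became 624 under the replicate block, 294 without the length trend, 845 under both changes, 262 when all 18 libraries were fitted, 31 when only the groups compared were, and 310 by DESeq2. The 365 called against gtf2i became 892 under the block and 1097 under both changes. The 20 of the difference became 83 under the block, 34 without the trend, 77 under both and 84 by DESeq2. The wild types of the crosses had 1354 by DESeq2. Without 1 library these counts ranged from 28 to 1159, 67 to 1376, 12 to 723 and 0 to 2076. The cause was not tested.

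Leaving out each library in turn, nuclear genes called ranged from 0 to 1 in gtf2i/gtf2i against wt_gtf2i, 0 to 1 against gtf2i (mitochondrial 0 to 1), 0 to 3 in the difference and 0 to 31 in wt_gtf2i against wt_ird1 (mitochondrial 0 to 4). In ird1/ird1 against wt_ird1 the nuclear median ranged from -0.22 to -0.12 and the mitochondrial median from 0.03 to 0.58. Depth limits the transfer RNAs, at 10 to 162 counts, and Ndufb4, Atp5l, Cox6b2 and Cox7c, at 11 to 75.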
